A study of Mus musculus with 6 samples.

Results

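The expression of 10 genes of the oxygen-sensing pathway was followed in cells labelled Hepa1-6, a mouse hepatoma line, after knockdown of Ero1a. They were chosen by name and comprise the HIF subunits Hif1a and Epas1, the regulators Vhl, Egln1, Egln2 and Egln3, and the HIF targets Vegfa, Bnip3, Ndrg1 and Ankrd37 that lie outside glycolysis. All 10 were among the 16217 genes of the deposited table, and 9 of them reached the mean of 1 FPKM (fragments per kilobase of gene length, scaled to library size) at which genes were tested. The tested cells carried a lentiviral short hairpin RNA against Ero1a (shERO1A, 3 libraries, called KD1, KD2 and KD3), and the control cells carried the lentiviral hairpin shNC (3 libraries). Both lines had been selected with puromycin, and RNA was taken from cultured cells whose oxygen level the labels do not give. Each line carries 1 hairpin, so lower Ero1a and any other way in which the shERO1A line departs from the shNC line cannot be told apart. No label names separate cultures for the 3 libraries of a line, and the p-values may thus rest on technical spread alone. In bulk RNA, fewer cells with a transcript and less of it per cell cannot be told apart.

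In oxygenated cells, the EGLN enzymes hydroxylate prolines of the HIF-alpha proteins, and the VHL ubiquitin ligase then marks those proteins for degradation. When oxygen is short the HIF-alpha proteins persist, pair with ARNT and bind the hypoxia response element in their target genes. HIF-alpha is therefore controlled largely at the protein level, which RNA sequencing does not measure. Ero1a, an oxidase that makes disulfide bonds in the endoplasmic reticulum, is itself known to be induced by hypoxia. Among the HIF targets are Egln3 and Egln1, whose products act back on HIF.

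The libraries held between 38290505 and 39646829 reads in the genes of the table. The targeted gene Ero1a stood at 15.0, 16.0 and 15.7 FPKM in KD1, KD2 and KD3, against 37.8, 39.6 and 38.4 FPKM in the shNC libraries, so the 6 libraries followed their labels in this gene. The line's labelled origin was set against marker genes. Of 10 hepatocyte and hepatoma markers, 6 were in the table. Their summed level was 110 to 114 FPKM in shERO1A and 131 to 139 FPKM in shNC. Afp was at 1.21 to 2.76 FPKM in shERO1A and at 3.05 to 3.14 FPKM in shNC, and Alb, Apoa1, Ttr and Serpina1a were not analysed here. Intestinal epithelial markers reached higher sums, 480 to 511 FPKM in shERO1A and 501 to 503 FPKM in shNC, with Cdh17 (224 to 234 FPKM in shERO1A and 220 to 224 FPKM in shNC) and Krt20 (182 to 195 FPKM in shERO1A and 166 to 170 FPKM in shNC) the most abundant of the 5 measured. The other 3 were lower in each shERO1A library, with Tspan8 at 66.7 to 76.2 FPKM in shERO1A and 98.8 to 103 FPKM in shNC, Vil1 at 3.12 to 4.4 FPKM in shERO1A and 6.67 to 7.12 FPKM in shNC, and Cdx2 at 2.23 to 2.63 FPKM in shERO1A and 4.02 to 5.08 FPKM in shNC. Hepatocyte markers thus summed to less than intestinal ones in every library, and the identity of the line was not tested. Fibroblast markers summed to at most 1.19 FPKM in shERO1A and 1.35 FPKM in shNC, and leukocyte markers to at most 3.08 FPKM in shERO1A and 2.41 FPKM in shNC. The part of these marker levels in the results was not tested.

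Of the 9 genes tested, 3 fell and 2 rose in shERO1A at a limma adjusted p under 0.05. Egln3, Bnip3 and Egln1 were the genes that fell, and Vegfa and Ndrg1 were those that rose. Hif1a, Vhl, Egln2 and Ankrd37 did not pass, and Epas1 was too low to be tested. These 5 calls are 55.6% of the 9 genes, where 17.7% of all 10296 tested genes were called. The genes were chosen with earlier results of these data known, so this share is not independent evidence of a change. The median absolute log2 change was 0.20 over the 9 genes and 0.11 over all tested genes. The groups did not overlap in 8 of the 10 genes, where 40% of all tested genes had groups that did not overlap. With single libraries left out, 2 to 4 of the 10 genes fell and 0 to 2 rose. With no filter on low values 4 fell and 2 rose, where 10.5% of all 16217 genes were called, and the authors' deposited table has q under 0.05 for 6 of the 10 genes and for 14.4% of all genes. Without KD3, 4 fell and 2 rose, and 27.7% of all genes were then called. Rises numbered 0 without shNC replicate 1 or 2 and 1 without shNC replicate 3 or KD2, and 2 genes fell when any 1 library other than KD3 was left out.

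**Figure D1:**
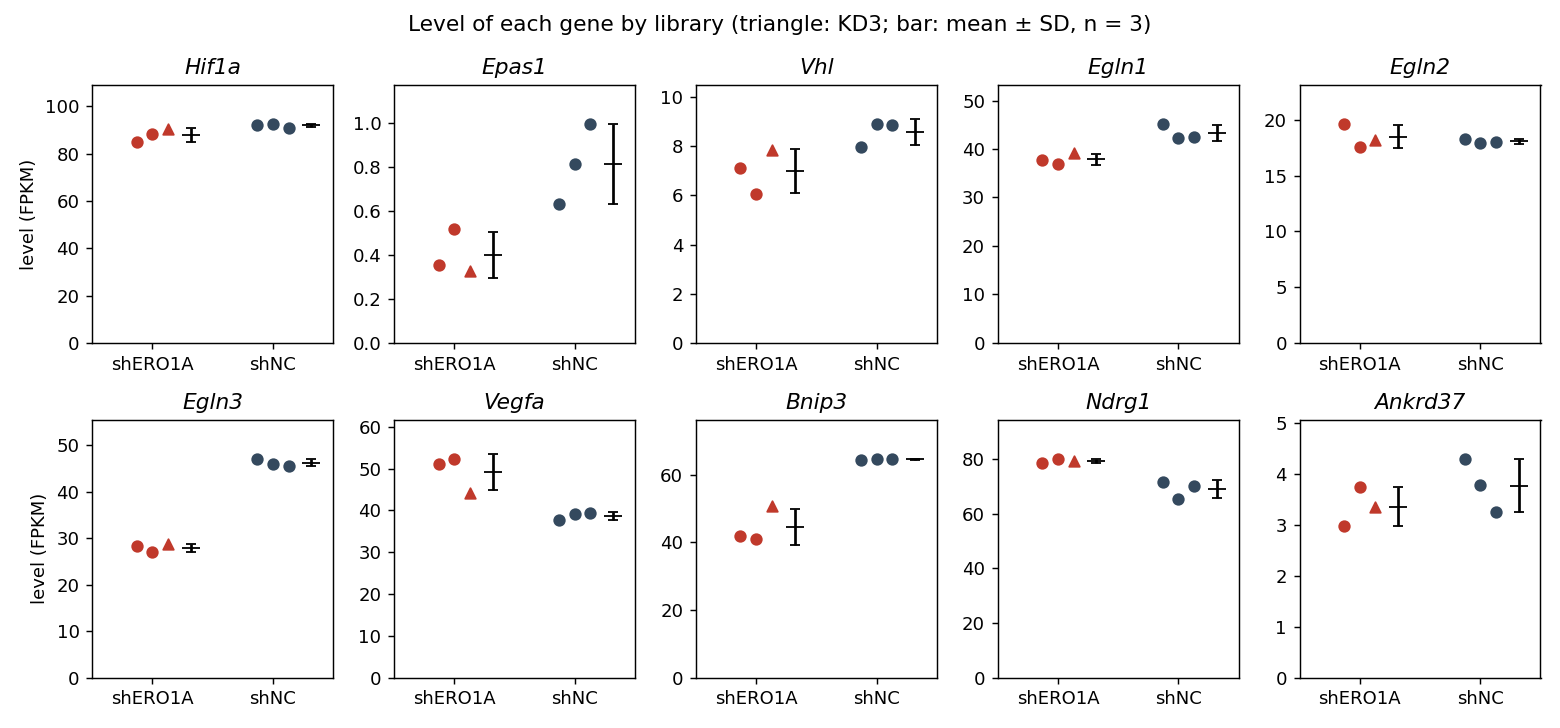
Level of each of the 10 genes in FPKM (vertical axes, each starting at 0) in the 3 shERO1A libraries (red, KD3 as a triangle) and the 3 shNC libraries (dark), with the mean ± SD beside the points. Egln3 and Bnip3 lie lower in every shERO1A library, Vegfa and Ndrg1 lie higher, and Egln2 and Ankrd37 overlap.

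RefSeq promoter windows (GRCm38.p6, 250 bases before to 50 after the annotated start) were listed for 8 of the 10 genes; Epas1 and Ndrg1 had no match. The core of the hypoxia response element was searched as ACGTG and GCGTG on both strands. At least 1 of these was present in 8 of the 10 windows listed for these genes, and 63.7% of the 10610 windows of tested genes held one. ACGTG was in 26.6% and GCGTG in 52% of those windows. The windows of the called genes Egln3, Bnip3, Egln1 and Vegfa and of the uncalled Ankrd37 are shown, because they set genes that fell beside one that rose and one that was not called. Each runs 5′ to 3′ on the strand of its gene, and capitals mark either motif on either strand.
Egln3: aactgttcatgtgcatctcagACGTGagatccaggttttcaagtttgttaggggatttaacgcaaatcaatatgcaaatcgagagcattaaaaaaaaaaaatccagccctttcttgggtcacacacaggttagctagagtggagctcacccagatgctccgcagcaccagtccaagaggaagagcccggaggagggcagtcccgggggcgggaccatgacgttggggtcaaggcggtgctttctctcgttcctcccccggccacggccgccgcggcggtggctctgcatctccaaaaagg
Bnip3: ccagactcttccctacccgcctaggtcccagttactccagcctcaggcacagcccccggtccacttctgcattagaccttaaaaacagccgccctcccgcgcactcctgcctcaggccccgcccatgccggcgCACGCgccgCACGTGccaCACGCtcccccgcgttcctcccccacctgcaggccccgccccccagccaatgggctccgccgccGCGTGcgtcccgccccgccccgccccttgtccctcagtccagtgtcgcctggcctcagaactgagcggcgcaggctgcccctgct
Egln1: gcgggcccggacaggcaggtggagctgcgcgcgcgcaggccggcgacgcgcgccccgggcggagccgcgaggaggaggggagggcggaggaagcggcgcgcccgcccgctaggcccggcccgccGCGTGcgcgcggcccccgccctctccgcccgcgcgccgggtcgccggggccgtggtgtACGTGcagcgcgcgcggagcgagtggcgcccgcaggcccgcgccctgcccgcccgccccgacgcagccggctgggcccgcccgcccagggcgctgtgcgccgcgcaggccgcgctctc
Vegfa: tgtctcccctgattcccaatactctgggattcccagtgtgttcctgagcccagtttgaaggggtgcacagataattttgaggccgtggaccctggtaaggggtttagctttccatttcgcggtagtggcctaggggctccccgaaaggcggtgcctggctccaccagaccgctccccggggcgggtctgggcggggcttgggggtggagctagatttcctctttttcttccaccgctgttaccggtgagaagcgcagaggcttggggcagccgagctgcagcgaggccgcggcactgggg
Ankrd37: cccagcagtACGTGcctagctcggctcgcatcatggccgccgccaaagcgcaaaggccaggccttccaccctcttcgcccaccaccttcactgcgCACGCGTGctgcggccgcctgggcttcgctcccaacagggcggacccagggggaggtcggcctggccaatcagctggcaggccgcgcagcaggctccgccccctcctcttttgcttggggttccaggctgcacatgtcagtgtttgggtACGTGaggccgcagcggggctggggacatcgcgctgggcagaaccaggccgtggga
These lie on the minus strand, at chr12:54203825-54204124 (Egln3), chr7:138909457-138909756 (Bnip3), chr8:124949205-124949504 (Egln1), chr17:46032328-46032627 (Vegfa) and chr8:45999801-46000100 (Ankrd37). The Bnip3 window held 2 ACGTG and 3 GCGTG matches. Its ACGTG matches, at -108 and -107 from the start, are the 2 strands of 1 palindrome, CACGTG, which 10.2% of the windows of tested genes held. Egln3 had 1 match, ACGTG at -229. Egln1 had 1 of each, at -68 and -126, and Ankrd37 had 2 of each, with ACGTG at -241 and -6 and overlapping GCGTG matches at -155 and -152. The window shown for Vegfa had none, and a second Vegfa window, at chr17:46025114-46025413, had 1 of each. That second window lies downstream of the one shown, and whether it acts as a promoter was not tested. A match describes only the letters of the window. Windows with matches belonged to genes that fell (Egln3, Bnip3, Egln1), to one that rose (Vegfa, in its second window only) and to genes that were not called (Ankrd37, Hif1a, Egln2).

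Among the HIF subunits, Hif1a was the most abundant of the 10 genes and Epas1 the least. Hif1a, the widely expressed HIF-alpha subunit, stood at 84.9, 88.1 and 90.5 FPKM in KD1, KD2 and KD3, against 92.3, 92.4 and 91.0 FPKM in the shNC libraries, from 16272 to 17909 reads each. The groups did not overlap, but KD3 came close to the lowest shNC library. The mean was 87.8 ± 2.80 FPKM in shERO1A and 91.9 ± 0.810 FPKM in shNC (SD, n = 3 each), with a log2 fold change of -0.06 (SE 0.042, limma adjusted p = 0.336). Its adjusted p ranged from 0.0579 to 0.557 over the alternatives. An antisense gene and a same-strand gene overlap exons of Hif1a in GENCODE M21, and no source used here gives the strand setting of the counting.

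Epas1, which encodes HIF-2-alpha, was lower in each shERO1A library. It stood at 0.353, 0.520 and 0.328 FPKM in KD1, KD2 and KD3 (74, 109 and 71 reads), against 0.632, 0.814 and 0.995 FPKM in the shNC libraries (134, 170 and 209 reads). The mean of the shERO1A libraries was 49.2% of that of shNC. With a mean of 0.607 FPKM over the 6 libraries it lay below the level for testing. With no filter on low values its log2 fold change was -0.37 (SE 0.09, limma adjusted p = 0.0499), on a scale that understates the change of a gene this low. The authors' deposited table gives Epas1 a log2 fold change of -1.03 with a q of 0.0019. The Hif1a level was 240, 169 and 276 times the Epas1 level in KD1, KD2 and KD3, against 146, 114 and 91.4 times in the shNC libraries (exact permutation p = 0.1, two-sided, adjusted p = 0.1 over 8 ratios, sums and shares). A p of 0.1 is the smallest that 3 against 3 libraries can give.

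The 3 prolyl hydroxylase genes moved unequally. Egln3 encodes PHD3, the family member whose transcript is most strongly hypoxia-inducible in many cells. It stood at 28.2, 27.0 and 28.7 FPKM in KD1, KD2 and KD3, against 47.0, 46.0 and 45.6 FPKM in the shNC libraries. The 3 shERO1A libraries lay close together and far below every shNC library. The mean fell to 28.0 ± 0.903 FPKM in shERO1A, against 46.2 ± 0.686 FPKM in shNC (SD, n = 3 each; log2 fold change -0.70, SE 0.043, limma adjusted p = 5.85e-05). Only 2% of tested genes had an absolute log2 change at least as large. The call of Egln3 held in each alternative run, with limma adjusted p from 4.24e-06 to 0.00127 and a q of 6.81e-31 in the authors' deposited table.

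Egln1, which encodes PHD2, the main HIF hydroxylase in normal oxygen, fell by less. It stood at 37.7, 36.9 and 39.1 FPKM in KD1, KD2 and KD3, against 45.1, 42.3 and 42.4 FPKM in the shNC libraries. The groups did not overlap, and the mean was 37.9 ± 1.12 FPKM in shERO1A and 43.3 ± 1.6 FPKM in shNC (log2 fold change -0.19, SE 0.047, limma adjusted p = 0.0302). Its call was lost without any single library other than KD3, with adjusted p of 0.0668 without KD1, 0.0996 without KD2, and 0.125, 0.0837 and 0.0884 without shNC replicates 1, 2 and 3. Without KD3 its adjusted p was 0.00468, the lowest over the alternatives.

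Egln2, which encodes PHD1, stood at 19.6, 17.6 and 18.2 FPKM in KD1, KD2 and KD3, against 18.3, 17.9 and 18 FPKM in the shNC libraries. The groups overlapped, and the log2 fold change was 0.03 (SE 0.052, limma adjusted p = 0.751). The direction turned to -0.014 without KD1. Exons of Cyp2t4 overlap those of Egln2 on the opposite strand, so its reads are uncertain in the same way as those of Hif1a.

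The makeup of the summed hydroxylase transcripts differed between the groups. Egln3 made up 33.0%, 33.1% and 33.4% of the summed Egln1, Egln2 and Egln3 level in KD1, KD2 and KD3, against 42.5%, 43.3% and 43.0% in the shNC libraries. The share of Egln1 averaged 45.0% ± 0.75 in shERO1A and 40.2% ± 0.554 in shNC, and the share of Egln2 averaged 21.9% ± 0.899 in shERO1A and 16.8% ± 0.191 in shNC (SD, n = 3 each). By FPKM, the most abundant of the 3 was Egln1 in every shERO1A library and Egln3 in every shNC library. By reads, Egln1 (6180, 5708 and 5760) was above Egln3 (5609, 5410 and 5405) in shNC replicates 1, 2 and 3. The shNC order thus depends on the gene lengths used in FPKM. The Egln3 to Egln1 ratio was 0.749, 0.731 and 0.734 in KD1, KD2 and KD3, against 1.04, 1.09 and 1.08 in the shNC libraries. The summed level was 84.3 ± 2.53 FPKM in shERO1A and 108 ± 2.49 FPKM in shNC. Each of these comparisons reached the exact permutation p of 0.1 (two-sided, n = 3 each) and an adjusted p of 0.1 over the 8. All are built from the same 3 gene levels, so they are not independent of each other or of the fall of Egln3. A share can rise when the level of its gene does not.

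**Figure D2:**
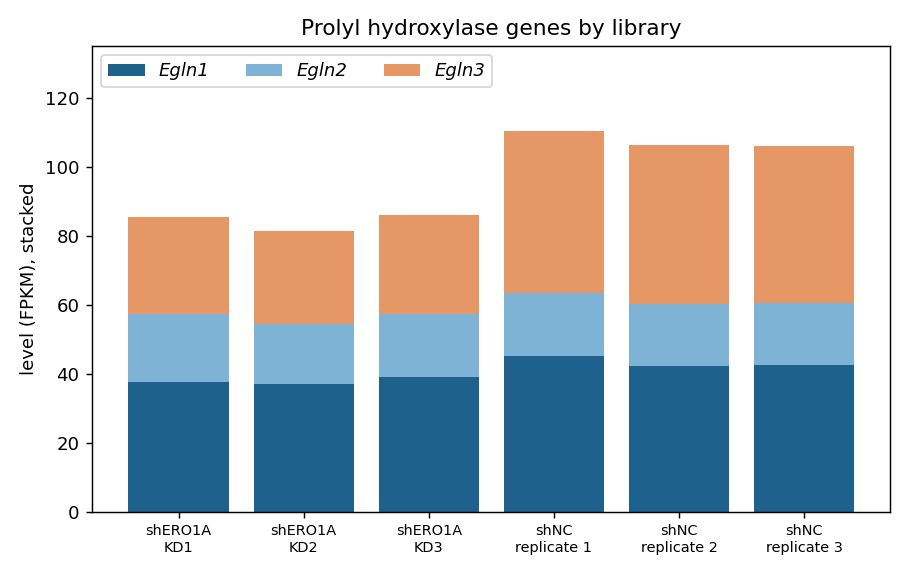
Stacked levels of Egln1, Egln2 and Egln3 in FPKM (vertical axis, from 0) in each library, with the 3 shERO1A libraries on the left and the 3 shNC libraries on the right. The Egln3 segment is 27.0 to 28.7 FPKM in shERO1A and 45.6 to 47.0 FPKM in shNC, while the Egln2 segment differs little.

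Vhl, the substrate-recognition subunit of the ligase that binds hydroxylated HIF-alpha, stood at 7.10, 6.04 and 7.84 FPKM in KD1, KD2 and KD3, against 7.96, 8.89 and 8.87 FPKM in the shNC libraries. KD3 was the highest of the shERO1A libraries and came close to shNC replicate 1. The log2 fold change was -0.27 (SE 0.09), and Vhl did not pass (limma adjusted p = 0.0827). Without KD3 it was called lower (log2 fold change -0.34, adjusted p = 0.0115), and over the alternatives its adjusted p reached 0.235. Vhl had no motif match in its window.

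Among the HIF targets, Bnip3 fell. Bnip3 encodes a mitochondrial outer membrane protein that promotes mitophagy. It stood at 41.8, 41.0 and 50.6 FPKM in KD1, KD2 and KD3, against 64.4, 64.6 and 64.5 FPKM in the shNC libraries. The shNC libraries lay very close to each other, and KD3 stood between them and the other shERO1A libraries. The mean was 44.5 ± 5.34 FPKM in shERO1A and 64.5 ± 0.137 FPKM in shNC (log2 fold change -0.53, SE 0.078, limma adjusted p = 0.00305), and 4.02% of tested genes had an absolute log2 change at least as large. The call held in each alternative run (limma adjusted p from 3.75e-06 without KD3 to 0.0199 without shNC replicate 2). The authors' deposited table gives Bnip3 a q of 2.91e-08. An antisense gene overlaps exons of Bnip3 in GENCODE M21 too.

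Vegfa, which encodes the angiogenic growth factor VEGF-A, rose. It stood at 51.0, 52.3 and 44.2 FPKM in KD1, KD2 and KD3, against 37.6, 39.1 and 39.4 FPKM in the shNC libraries. KD3 was again the shERO1A library nearest to shNC, with no overlap of the groups. The mean was 49.1 ± 4.36 FPKM in shERO1A and 38.7 ± 0.955 FPKM in shNC, a ratio of 1.27 (SD, n = 3 each; log2 fold change 0.33, SE 0.067, limma adjusted p = 0.0126). The call was lost without shNC replicate 1 (adjusted p = 0.063) or 2 (adjusted p = 0.0522) and was clearest without KD3 (log2 fold change 0.41, adjusted p = 7.79e-05). Endothelial markers, whose cells respond to VEGF-A, summed to 17.9 to 19.0 FPKM in shERO1A and 9.97 to 10.7 FPKM in shNC. Nearly all of that was Cdh5, while Pecam1, Vwf and Kdr were each at most 0.151 FPKM in shERO1A and 0.141 FPKM in shNC; Tek was not analysed here.

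Ndrg1, a stress-responsive gene induced by hypoxia in many cell types, rose by a smaller amount. It stood at 78.6, 80.1 and 79.5 FPKM in KD1, KD2 and KD3, against 71.7, 65.6 and 70.3 FPKM in the shNC libraries. The shERO1A libraries lay close together, and the wider spread was in shNC. The mean was 79.4 ± 0.758 FPKM in shERO1A and 69.2 ± 3.18 FPKM in shNC (log2 fold change 0.20, SE 0.047, limma adjusted p = 0.025). Its call was lost without KD2 (adjusted p = 0.0817) and without shNC replicates 1, 2 and 3 (adjusted p = 0.0566, 0.111 and 0.0837), and without KD3 its adjusted p was 0.00822. An antisense gene and a non-coding RNA gene, both on the opposite strand, overlap exons of Ndrg1 in GENCODE M21. The non-coding RNA gene averaged 0.0341 FPKM, and the antisense gene was not among the genes of the deposited table. The reads of Ndrg1 are thus uncertain in the same way as those of Bnip3.

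Ankrd37, an ankyrin repeat gene with a hypoxia-inducible promoter in human cells, was low and was not called. It stood at 2.98, 3.75 and 3.35 FPKM in KD1, KD2 and KD3, against 4.30, 3.78 and 3.25 FPKM in the shNC libraries, from 234 to 342 reads each. The groups overlapped, and the log2 fold change was -0.13 (SE 0.10, limma adjusted p = 0.42). Its exons overlap those of Ufsp2 on the opposite strand, which averaged 26.2 FPKM over the 6 libraries, so reads of the pair may be mixed.

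**Figure D3:**
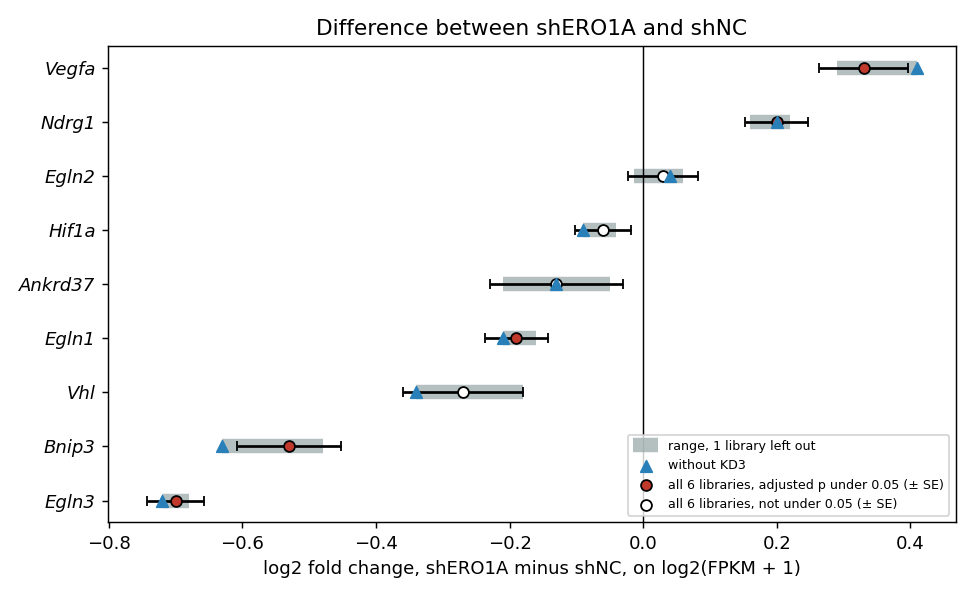
Log2 fold change of the 9 tested genes, shERO1A minus shNC, on log2(FPKM + 1) (points, ± SE; filled where the limma adjusted p is under 0.05), with the range when 1 library is left out (grey) and the value without KD3 (triangles). Egln3 at -0.70 and Bnip3 at -0.53 lie farthest below 0, Vegfa at 0.33 lies farthest above it, and the range of Egln2 crosses 0.

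The order of the levels, which FPKM allows between genes, was led by Hif1a and Ndrg1 in both groups. In shERO1A they were followed by Vegfa, Bnip3, Egln1, Egln3, Egln2, Vhl, Ankrd37 and Epas1. In shNC they were followed by Bnip3, Egln3, Egln1, Vegfa, Egln2, Vhl, Ankrd37 and Epas1. Vegfa and Bnip3 overlapped in shERO1A, and no other neighbours in either order did. The level of Vegfa was 1.22, 1.27 and 0.872 times that of Bnip3 in KD1, KD2 and KD3, against 0.584, 0.605 and 0.611 times in the shNC libraries (exact permutation p = 0.1, adjusted p = 0.1 over the 8). Vegfa was 1.76 ± 0.204 times Egln3 in shERO1A and 0.838 ± 0.0329 times Egln3 in shNC, with the same p.

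Library KD3 departed from KD1 and KD2 in some of these genes and not in others. On the log2(FPKM + 1) scale, the shift of KD3 from the shNC mean was 54.7% of that of KD1 and KD2 for Bnip3 and 45.7% for Vegfa. It was 33.4% for Vhl and 68.1% for Egln1, but 92.3% for Egln3 and 101% for Ndrg1. Over the 2856 genes called without KD3, the median was 97.7%, and 51.3% of them were under 100%. The Bnip3 paralog Bnip3l, picked after its values were seen, had 15.5, 15.7 and 18 FPKM in KD1, KD2 and KD3, against 23.0, 22.8 and 23.0 FPKM in the shNC libraries. The mitochondrial HIF target Fam162a, picked likewise, had 79.0, 81.1 and 101 FPKM in KD1, KD2 and KD3, against 99.7, 103 and 98.2 FPKM in the shNC libraries. In both genes KD3 was the shERO1A library nearest to shNC, and in Fam162a it lay within the shNC range. Other HIF targets that were called lower went the other way. In Loxl2, P4ha2, Gys1 and Nos2, also picked after their values were seen, KD3 was the shERO1A library farthest from shNC.

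Profiles most like those of Vegfa, the called gene with the largest rise, and Egln3, the one with the largest fall, were sought among protein-coding genes that averaged 5 FPKM or more, by Euclidean distance between the 6 centred log2(FPKM + 1) values. Nearest to Vegfa was Otud4 (distance 0.0287), at 64.8, 66.3 and 56.0 FPKM in KD1, KD2 and KD3, against 47.0, 49.1 and 49.1 FPKM in the shNC libraries. Sh3pxd2a and Ccdc88a followed, at distances of 0.0661 and 0.0673. Nearest to Egln3 was Slc26a2 (distance 0.0666), at 18.9, 18.1 and 19.1 FPKM in KD1, KD2 and KD3, against 30.0, 29.9 and 30.3 FPKM in the shNC libraries. Rps6ka1 and Trim44 followed, at 0.0792 and 0.0957. The 6 points of each profile come from 2 groups of libraries that differ in level, and the likeness is a description.

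Among other genes of the HIF-controlling machinery, Arnt2 and Hsp90aa1 rose. Of 25 further subunits, hydroxylases, degradation factors and cofactors, 22 were tested, of which 2 rose, 0 fell and 20 did not pass. That is 9.09% of the list called, against 17.7% of all genes, and its median log2 change was 0.05 where that of all genes was 0.01. By unadjusted limma p under 0.05, 2 rose and 1 fell, a threshold at which the share of all genes was not computed. Voom on recovered reads gave 1 fall, where 939 of all 10296 tested genes fell. The authors' deposited table gives 2 of these genes as lower, where it gives 1215 of all 16217 genes as lower. Arnt2, a paralog of the HIF partner Arnt, rose to 1.88, 1.72 and 1.61 FPKM in KD1, KD2 and KD3, against 0.930, 0.931 and 1.09 FPKM in the shNC libraries (log2 fold change 0.47, limma adjusted p = 0.00546). Hsp90aa1, a chaperone that binds HIF-alpha, averaged 351 ± 3.86 FPKM in shERO1A and 308 ± 2.44 FPKM in shNC (log2 fold change 0.19, adjusted p = 0.0236). The call of Hsp90aa1 was lost without KD2 or any single shNC replicate, with an adjusted p of up to 0.121. Arnt itself was at 11.8 ± 1.34 FPKM in shERO1A and 12.6 ± 0.455 FPKM in shNC (adjusted p = 0.47), and Hif1an, the asparaginyl hydroxylase FIH, was at 11.9 ± 0.773 FPKM in shERO1A and 11.4 ± 0.384 FPKM in shNC (adjusted p = 0.536). Neither passed.

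Other HIF targets, listed apart from the glycolytic targets and named non-glycolytic here, changed in both directions, with more falls than rises. The list also holds genes tied to glycolysis or its product pyruvate, namely Slc2a1, Pdk1, Pdk3, Pfkfb3 and Pfkfb4. Of these, Slc2a1 and Pdk1 are among the falls, and Pdk3, Pfkfb3 and Pfkfb4 were not called. Of 55 on the list, 42 were tested, and 16 fell, 5 rose and 21 did not pass. Falls were 38.1% of the tested list, where 8.23% of all genes fell, and rises were 11.9%, where 9.48% of all genes rose. The median log2 change was -0.18, against 0.01 for all genes. Some of these genes were known as changed in these data when the list was made, so its count is not independent evidence of a direction. Without KD3, 18 fell and 8 rose, and with any single library left out falls numbered 11 to 18. The 11 came from leaving out shNC replicate 1 or 3.

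On the log2(FPKM + 1) scale, the largest falls among them were in Stc2, a secreted glycoprotein gene, Loxl2, a lysyl oxidase that cross-links collagen, and Selenbp1, a selenium-binding protein gene. Stc2 stood at 0.610, 1.06 and 1.14 FPKM in KD1, KD2 and KD3, against 4.72, 3.12 and 3.07 FPKM in the shNC libraries (log2 fold change -1.25, limma adjusted p = 0.00174). Loxl2 stood at 9.25, 8.78 and 8.22 FPKM in KD1, KD2 and KD3, against 14.6, 15.0 and 15.7 FPKM in the shNC libraries (log2 fold change -0.73, adjusted p = 0.00018). Selenbp1 averaged 2.80 ± 0.051 FPKM in shERO1A and 5.15 ± 0.685 FPKM in shNC (adjusted p = 0.00169). By the ratio of mean levels, Nos2, the inducible nitric oxide synthase, comes before Selenbp1 and Loxl2 and was named after its values were seen. It averaged 1.83 ± 0.436 FPKM in shERO1A and 3.47 ± 0.17 FPKM in shNC, a level of 52.8% of shNC, against 54.3% for Selenbp1 and 57.9% for Loxl2 (log2 fold change of Nos2 -0.67, limma adjusted p = 0.00653). In each of these 4 genes, named for their large falls, the groups did not overlap. That held for 73.8% of the tested list and for 40% of all tested genes.

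Further genes close in role to the 10 were named after their values were seen. Bnip3l, the mitophagy receptor NIX, averaged 16.4 ± 1.42 FPKM in shERO1A and 22.9 ± 0.134 FPKM in shNC, and fell with Bnip3 (log2 fold change -0.46, limma adjusted p = 0.00215). P4ha1 and P4ha2, subunits of the collagen prolyl hydroxylases, were at 84.4% and 71.6% of shNC, and both fell (adjusted p = 0.0109 and 0.00808). The call of P4ha1 was lost without shNC replicate 1 or 3, with an adjusted p of up to 0.0595. Pdk1, a kinase that restrains pyruvate dehydrogenase, stood at 10.4, 10.6 and 11.3 FPKM in KD1, KD2 and KD3, against 15.4, 15.2 and 15.2 FPKM in the shNC libraries (log2 fold change -0.47, adjusted p = 0.000691). Slc2a1, the glucose transporter GLUT1, averaged 78.7 ± 1.03 FPKM in shERO1A and 95.3 ± 1.55 FPKM in shNC (log2 fold change -0.27, adjusted p = 0.00296). Rises were seen in Plin2, a lipid droplet coat gene (0.61), Igfbp3, an IGF-binding protein gene (0.57), Bhlhe41, a transcription repressor gene (0.45), and Angptl4, an inhibitor of lipoprotein lipase (0.28), each as a log2 fold change. The adjusted p of Angptl4 was 0.0309, and its call was lost without KD2, without any single shNC replicate and with no filter on low values (up to 0.127). Of the other VEGF family genes on the list, Vegfb averaged 21.7 ± 0.411 FPKM in shERO1A and 19.4 ± 0.792 FPKM in shNC, and Vegfc averaged 24.1 ± 2.59 FPKM in shERO1A and 20.7 ± 0.947 FPKM in shNC. Pgf averaged 1.54 ± 0.182 FPKM in shERO1A and 1.20 ± 0.255 FPKM in shNC. None of these 3 passed (adjusted p = 0.0634, 0.103 and 0.205). Flt1, a VEGF receptor gene, was at 6.21 ± 0.586 FPKM in shERO1A and 6.40 ± 0.191 FPKM in shNC (adjusted p = 0.741). Car9, a carbonic anhydrase gene widely used as a hypoxia marker, was at most 0.0355 FPKM in shERO1A and 0.190 FPKM in shNC.

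Glycolytic HIF targets fell or did not pass. Of 16 on the list, 13 were tested, and 3 fell, 0 rose and 10 did not pass. The share called was 23.1%, near the 17.7% of all genes, where 8.23% of all genes were called lower. The 3 were Pfkp (log2 fold change -0.54, limma adjusted p = 0.00698), Pfkl (-0.37, adjusted p = 0.00281) and Gpi1 (-0.32, adjusted p = 0.00201), enzymes of the first steps of glycolysis. Without KD3, 10 fell, where lower calls over all genes numbered 1341 in place of 847. The authors' deposited table gives 8 falls among the 16, where it gives 1215 of all 16217 genes as lower. Rises numbered 0 in each alternative run, with voom and the authors' deposited table included. By unadjusted limma p under 0.05, 0 rose and 7 fell. The share of all genes at that threshold was not computed, so these counts cannot be weighed against it.

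**Figure D4:**
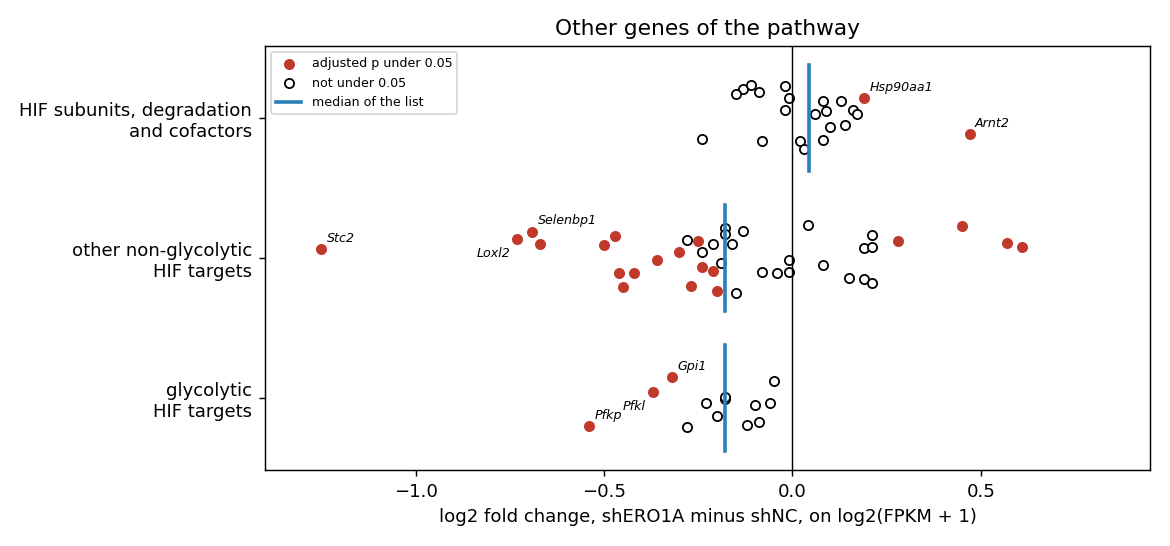
Log2 fold change (shERO1A minus shNC, on log2(FPKM + 1)) of the tested genes of the 3 further lists (1 gene is not shown), filled where the limma adjusted p is under 0.05, with the median of each list as a line. The HIF subunits and cofactors centre on 0.05 with 2 called genes, and both target lists have medians of -0.18, with calls on both sides of 0 among the non-glycolytic targets, including Stc2 at -1.25 and Plin2 at 0.61.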

How the data were processed

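The authors deposited 1 table of 16217 genes; the submitters' processing notes name HISAT2 2.1.0, HTSeq 0.11.2 and mm39, with no annotation named in the sources used here. The deposited expression columns carry no unit and were taken as FPKM from their values. Per the file headers, the base means are a signal (reads over DESeq2 size factors), and the authors' fold change is a ratio, beside their log2 fold change, p-value and q-value. The shERO1A columns name the group but no sample title.

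Reads were recovered from FPKM and base means (100% of 97302 values within 0.01 of a whole read). Genes averaging 1 FPKM or more were fitted as log2(FPKM + 1) with limma 3.58.1 (R 4.3.3, intensity trend, no covariate), with Benjamini-Hochberg adjustment and a threshold of 0.05; the steps were tested on simulated data. Fold changes on this scale understate the change of low genes. The 10 genes and the lists were chosen with earlier results of these data known. Named list genes are up to 4 called members with the largest change; others are marked, and 1 gene counted in the lists is not reported here. Alternatives were a pseudocount of 0.1, no filter, median scaling, each library left out, the authors' table and, chosen after seeing the data, voom on recovered reads. Counting error alone is covered by the read numbers.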

Additional observations from a re-analysis of the deposited data

How the results depend on the processing

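Of the alternatives, a pseudocount of 0.1, median scaling and voom on recovered reads kept 3 falls and 2 rises among the 10 genes, and no filter and the authors' deposited table gave 4 falls and 2 rises, with Epas1 tested. Leaving out 1 library gave 488 to 1515 higher and 458 to 1341 lower genes over the whole table, 0 to 2 rises and 2 to 4 falls among the 10 genes, 1 to 2 rises and 0 to 2 falls among HIF subunits and cofactors, 4 to 8 rises among the non-glycolytic targets, and 3 to 10 falls among glycolytic targets. Egln2 lay between -0.014 and 0.06. Falls among HIF subunits and cofactors numbered 1 with no filter or voom and 2 in the authors' table. Glycolytic falls numbered 6 with median scaling, 7 with voom and 8 in the authors' table. Over all genes, lower calls numbered 847 in the main fit and 812 with no filter. They numbered 915 with median scaling, 939 with voom and 1215 in the authors' table. The cause of these differences was not tested. A negative binomial test was planned only for a table of counts. It was not run on the recovered reads, on which voom was run. No paired analysis was possible because the shERO1A columns (KD) and sample titles (SH) differ in name, and no label says that equal numbers mark a shared culture, batch or day. Depth limits Epas1, with 71 to 109 reads in shERO1A and 134 to 209 in shNC.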
